A study of Mus musculus with 10 samples.

Results

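The genes described here are 10 transcripts that are read as markers of epithelial to mesenchymal transition in kidney scarring: the transcription factor genes Snai1, Snai2, Zeb1, Zeb2, Twist1 and Twist2, the cadherin genes Cdh1 and Cdh2, the epithelial adhesion gene Epcam and the filament gene Vim. They were chosen by gene name, and all 10 were found among the 54532 genes of the deposited table. The tested libraries were 5 from mouse kidney of genotype Padi4-knockout, and the libraries they were set against were 5 from kidney of genotype WT (wild type). The kidneys of both genotypes had been obstructed for 10 days by unilateral ureteral obstruction (UUO), in which 1 ureter is tied off and urine backs up into its kidney. Padi4 encodes the histone-citrullinating enzyme PAD4, and the title of the study names inflammation and fibrosis as its subject. Strain, age, sex, the deleted exons, whether any library pooled animals and whether the deletion was limited to a cell type are not stated in the labels. No unobstructed kidney is analysed here, so no level below is a change from a healthy kidney. The labels do not say that libraries of 1 genotype came from separate animals, so the p-values measure the spread between these samples, which may be technical.

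Epithelial cells hold together through E-cadherin, the product of Cdh1, and through EpCAM. SNAIL, ZEB and TWIST proteins bind E-box sequences in DNA and repress such epithelial genes, and cells in which they act can lose E-cadherin and gain N-cadherin (Cdh2) and vimentin (Vim). In the kidney, injured tubule cells can take on part of this program, while fibroblasts, leukocytes, endothelium and podocytes carry Vim and several of the factors at all times. In whole tissue, fewer cells of a type and less RNA per cell cannot be told apart.

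The E-box word that SNAIL and ZEB factors prefer, CACCTG on 1 strand and CAGGTG on the other, was searched in the 250 bases before the RefSeq start of each gene (build GRCm38.p6), and 6 of the 10 genes matched the promoter table. These were Snai1, Twist1, Twist2, Zeb2, Vim and Epcam. The word was found in the window of Snai1, with 1 match, and in that of Epcam, with 2 matches. Of 27025 genes in the promoter table, with 1 promoter taken for each, 17.1% held at least 1 match and 2.06% held 2 or more. For the 6 genes every listed promoter was searched, which for Zeb2 meant 4 windows. Those windows are shown because they hold the word that the repressors of the group are known to bind, with the matches in capitals and the rest in lower case. The first base of the match in Snai1 lies at -126 from the start, and those in Epcam lie at -187 and -19. A match is a description of the letters and no evidence of binding.
Snai1 promoter, chr2:167537945-167538194, plus strand: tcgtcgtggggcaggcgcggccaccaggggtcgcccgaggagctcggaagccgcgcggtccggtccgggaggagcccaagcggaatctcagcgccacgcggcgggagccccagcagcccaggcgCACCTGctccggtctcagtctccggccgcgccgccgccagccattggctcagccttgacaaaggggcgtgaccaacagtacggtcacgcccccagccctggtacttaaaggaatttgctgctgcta
Epcam promoter, chr17:87635729-87635978, plus strand: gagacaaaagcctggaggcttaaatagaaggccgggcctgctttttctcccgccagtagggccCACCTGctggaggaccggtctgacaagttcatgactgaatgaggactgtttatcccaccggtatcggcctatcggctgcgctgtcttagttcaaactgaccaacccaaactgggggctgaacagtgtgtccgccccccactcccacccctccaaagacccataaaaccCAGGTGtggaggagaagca

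The libraries held 15002922 to 16886945 recovered reads, and the unit of all levels is FPKM (fragments per length of gene model and per depth of library, as scaled between libraries by the authors). Padi4 itself measured 0.256 FPKM ± 0.164 in knockout and 0.358 FPKM ± 0.183 in wild-type kidneys (SD, n = 5 each), with 9 to 43 reads per knockout library and 6 to 47 reads per wild-type library. That difference was smaller than the spread (exact two-sided permutation p = 0.373), so it does not check the genotype labels. Markers of nephron segments were abundant, with the loop gene Umod at 705.8 FPKM in knockout and 686.8 FPKM in wild-type kidneys. The library wild type 1 stood apart: the mitochondrial share of reads was 8.11% there, against 3.18% to 5.79% elsewhere, and its size factor was 0.859 where the others had 0.977 to 1.06. It was the lowest of all 10 libraries for 6 of the 10 genes, so values without it are given beside each result that turns on it.

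No member passed the test between the genotypes. Of the 9 genes that reached a mean of 1 FPKM and were tested, 5 had higher and 4 had lower mean log2 values in knockout kidneys, where 51.6% of all 13435 genes tested were higher. In limma 0 of the 9 reached a Benjamini-Hochberg adjusted p under 0.05, against 0% of all genes tested. Of the 9 members 0 had an unadjusted p below 0.05, against 4.05% of all genes tested. Without wild type 1 that count was 1, which was Twist1, where 916 of the 13442 genes tested in that fit had such a p. The groups overlapped for all 10 members, and they did not overlap for 0.744% of all genes tested. The median difference of the 9 genes was 0.03 on the log2(FPKM + 1) scale, against 0.0051 over all genes tested. Limma called 0 of 13435 genes, 544 had an unadjusted p under 0.05, and limma-voom fitted to the reads gave 0 calls, with 529 unadjusted.

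**Figure D1:**
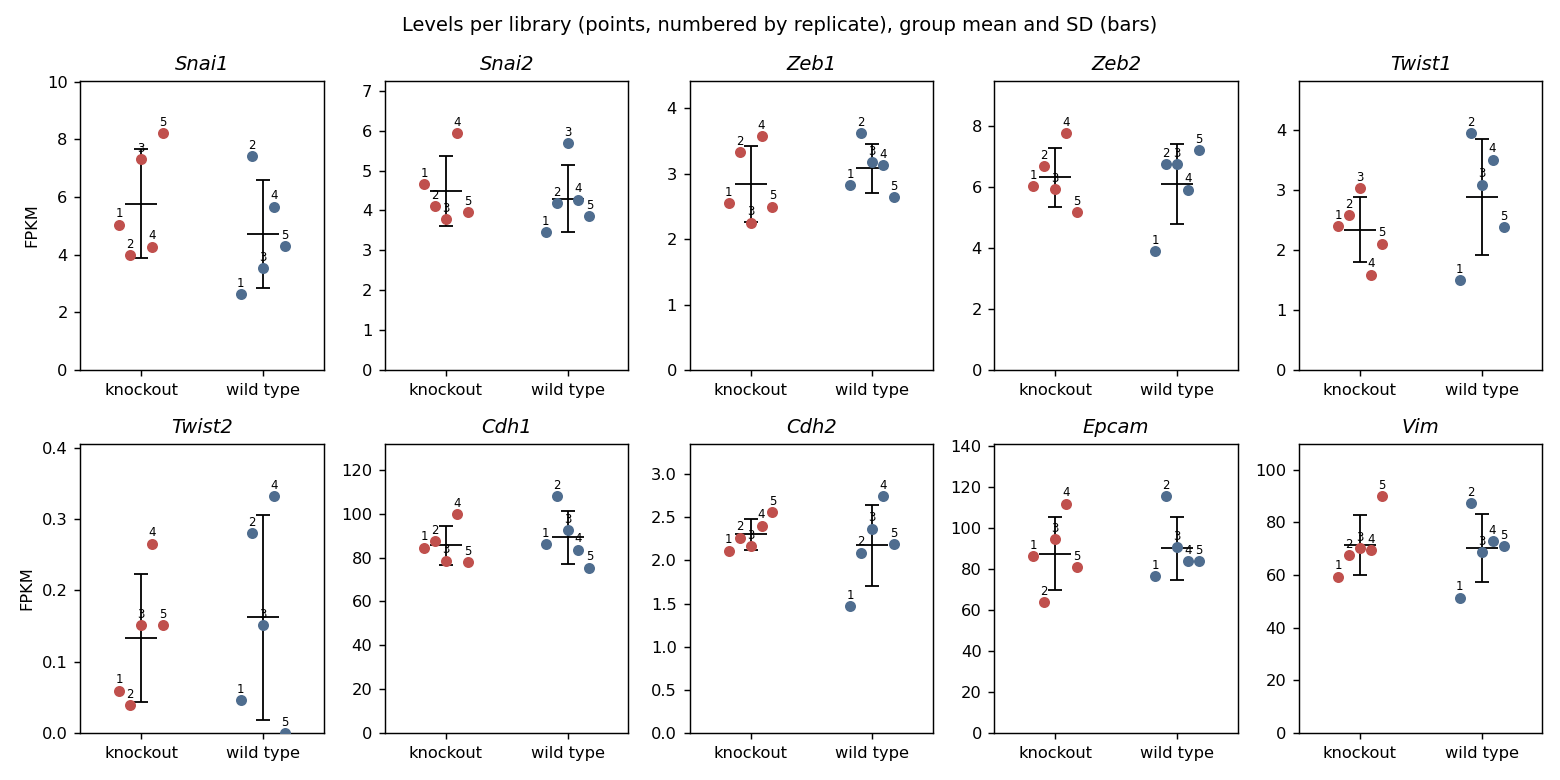
FPKM (vertical axes from 0, a separate scale per gene) of the 10 genes in 5 knockout and 5 wild-type libraries, with points numbered by replicate and bars for group mean and SD. The groups overlap for each gene, and wild type 1 is the lowest point for Snai1, Snai2, Zeb2, Twist1, Cdh2 and Vim.

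The means of both genotypes gave the same order of levels, with the epithelial genes and Vim high and the factors low. Over all 10 libraries the mean was 88.8 FPKM for Epcam, 87.5 FPKM for Cdh1 and 70.8 FPKM for Vim, which placed Cdh1 at rank 484 and Vim at rank 628 of the 13435 genes tested. The factors followed at 6.2 FPKM for Zeb2, 5.24 FPKM for Snai1, 4.4 FPKM for Snai2, 2.96 FPKM for Zeb1 and 2.61 FPKM for Twist1. Cdh2 measured 2.24 FPKM and Twist2 0.148 FPKM. Several neighbours in that order did not keep it: Epcam exceeded Cdh1 in 7 of 10 libraries, Zeb2 exceeded Snai1 in 7, Snai1 exceeded Snai2 in 6, Zeb1 exceeded Twist1 in 7 and Twist1 exceeded Cdh2 in 8. Cdh1 exceeded Vim in 9 libraries, and in all 10 Vim lay above Zeb2, Snai2 above Zeb1 and Cdh2 above Twist2. The level of Zeb2 per length depends on its deposited gene model of 19942 bases, the longest of the group.

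Snai1 and Snai2 encode the zinc finger repressors SNAIL and SLUG. Snai1 lies on chromosome 2 from 167538195 to 167542814 (plus strand, in coordinates that match GRCm38) and Snai2 on chromosome 16 from 14705852 to 14709385 (plus strand). Snai1 had 5.05, 3.997, 7.31, 4.28 and 8.21 FPKM in knockout libraries 1 to 5, against 2.64, 7.42, 3.55, 5.67 and 4.29 FPKM in wild-type libraries 1 to 5. Knockout 3 and 5 were high together with wild type 2, and wild type 1 was the lowest. The highest library was 3.11 times the lowest, the widest range among the 9 genes tested, and the gene rested on 58 to 221 reads per library. Snai1 averaged 5.77 FPKM ± 1.89 in knockout and 4.71 FPKM ± 1.88 in wild-type kidneys (SD, n = 5 each), which is a log2 difference of 0.26 (95% interval -0.25 to 0.78, limma adjusted p = 0.976). Without wild type 1 the difference was 0.11. Snai2 had 4.67, 4.11, 3.78, 5.94 and 3.96 FPKM in knockout libraries 1 to 5, against 3.47, 4.19, 5.69, 4.27 and 3.87 FPKM in wild-type libraries 1 to 5. Its high libraries were knockout 4 and wild type 3, neither of which was high for Snai1. The log2 difference of Snai2 was 0.05 (95% interval -0.23 to 0.34, limma adjusted p = 0.983) and -0.0062 without wild type 1.

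The Snai1 to Snai2 ratio of FPKM varied from library to library within each genotype. It was 1.08, 0.972, 1.93, 0.721 and 2.07 in knockout libraries 1 to 5, against 0.761, 1.77, 0.623, 1.33 and 1.11 in wild-type libraries 1 to 5. Snai1 was the higher of the pair in 3 of 5 knockout and 3 of 5 wild-type libraries.

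Zeb1 and Zeb2 encode large repressors with zinc fingers at both ends and a homeobox-like domain between them. Zeb1 lies on chromosome 18 from 5591860 to 5775467 (plus strand) and Zeb2 on chromosome 2 from 44983632 to 45117395 (minus strand). Zeb1 had 2.55, 3.33, 2.25, 3.57 and 2.50 FPKM in knockout libraries 1 to 5, against 2.83, 3.62, 3.18, 3.13 and 2.64 FPKM in wild-type libraries 1 to 5. The 3 lowest values were all in knockout libraries, and the other 2 knockout libraries lay near the top of the wild-type range. Zeb1 averaged 2.84 FPKM ± 0.576 in knockout and 3.08 FPKM ± 0.374 in wild-type kidneys, a log2 difference of -0.10 (95% interval -0.34 to 0.15, limma adjusted p = 0.976). Zeb2 had 6.02, 6.67, 5.93, 7.75 and 5.18 FPKM in knockout libraries 1 to 5, against 3.89, 6.74, 6.74, 5.91 and 7.21 FPKM in wild-type libraries 1 to 5. Wild type 1 was the low library, and the other 9 lay within 5.18 and 7.75 FPKM. The log2 difference of Zeb2 was 0.06 (95% interval -0.26 to 0.37, limma adjusted p = 0.983) and -0.07 without wild type 1. Zeb2 exceeded Zeb1 in every library, by 2.36, 2.0003, 2.63, 2.17 and 2.07 times in knockout libraries 1 to 5 and by 1.37, 1.86, 2.12, 1.89 and 2.73 times in wild-type libraries 1 to 5. The antisense gene Zeb2os overlaps Zeb2 and had 131 reads in knockout and 87 reads in wild-type libraries in all, where Zeb2 had 10148 and 9635. The labels do not state whether reads were counted by strand, so reads of this pair cannot be told apart where they overlap.

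Twist1 and Twist2 encode related basic helix-loop-helix factors that are known from mesoderm and mesenchyme. Twist1 lies on chromosome 12 from 33957671 to 33959829 (plus strand) and Twist2 on chromosome 1 from 91801461 to 91848028 (plus strand). Twist1 had 2.40, 2.59, 3.03, 1.59 and 2.11 FPKM in knockout libraries 1 to 5, against 1.50, 3.95, 3.09, 3.51 and 2.38 FPKM in wild-type libraries 1 to 5. Wild type 2, 3 and 4 were above every knockout library, while wild type 1 was the lowest of all 10. Twist1 averaged 2.34 FPKM ± 0.536 in knockout and 2.89 FPKM ± 0.968 in wild-type kidneys (SD, n = 5 each), which is a log2 difference of -0.19 (95% interval -0.59 to 0.21, limma adjusted p = 0.976). Without wild type 1 the difference was -0.34, the largest of the group in that fit, at an adjusted limma p of 0.726 over all genes. With each library left out in turn it ranged from -0.34 to -0.09. Twist1 rested on 33 to 101 reads per library.

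Twist2 was near the detection floor and was not tested in limma. It had 3, 2, 8, 13 and 8 reads in knockout libraries 1 to 5, against 2, 14, 8, 17 and 0 reads in wild-type libraries 1 to 5. The library with no read, wild type 5, allows up to 3 reads, or 0.0582 FPKM, for counting error only. The mean was 0.133 FPKM in knockout and 0.162 FPKM in wild-type kidneys, a difference of -0.03 in mean log2(FPKM + 1) (exact two-sided permutation p = 0.746, where 0.00794 is the smallest this design allows). A difference between genotypes was not detectable at this depth. Reads in sequence that Twist1 and Twist2 share are uncertain, since the labels do not state how reads with several alignments were handled.

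Cdh1 encodes E-cadherin, the adherens junction protein of tubule epithelium, and Epcam encodes a surface adhesion protein of simple epithelia. Cdh1 lies on chromosome 8 from 106603351 to 106670246 (plus strand) and Epcam on chromosome 17 from 87635979 to 87651106 (plus strand, with another end in the GRCm38 annotation). Cdh1 had 84.6, 87.6, 78.6, 99.7 and 77.9 FPKM in knockout libraries 1 to 5, against 86.2, 108.2, 92.5, 83.7 and 75.5 FPKM in wild-type libraries 1 to 5. Both the highest and the lowest library were wild type, so the knockout values lay inside the wild-type range. It averaged 85.7 FPKM ± 8.83 in knockout and 89.2 FPKM ± 12.2 in wild-type kidneys (SD, n = 5 each), which is a log2 difference of -0.05 (95% interval -0.30 to 0.19, limma adjusted p = 0.981). With limma-voom on the recovered reads, which needs no pseudocount, the ratio of knockout to wild type was 0.964 with an interval of 0.814 to 1.14. Epcam had 86.3, 64.0, 94.7, 111.9 and 81.1 FPKM in knockout libraries 1 to 5, against 76.4, 115.7, 90.6, 84.0 and 83.7 FPKM in wild-type libraries 1 to 5. Knockout 2 was the lowest library for Epcam although it was near the mean for Cdh1. The log2 difference of Epcam was -0.05 (95% interval -0.39 to 0.29, limma adjusted p = 0.988), and its voom ratio was 0.967 with an interval of 0.772 to 1.21.

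Cdh2 encodes N-cadherin, which in the kidney is known from proximal tubule cells as well as from mesenchymal cells. It lies on chromosome 18 from 16588877 to 16809246 (minus strand). It had 2.11, 2.27, 2.17, 2.40 and 2.56 FPKM in knockout libraries 1 to 5, against 1.47, 2.09, 2.37, 2.75 and 2.19 FPKM in wild-type libraries 1 to 5. The knockout libraries lay close together, and the wild-type libraries held both the lowest and the highest value. Cdh2 averaged 2.30 FPKM ± 0.182 in knockout and 2.17 FPKM ± 0.466 in wild-type kidneys (SD, n = 5 each), which is a log2 difference of 0.07 (95% interval -0.18 to 0.31, limma adjusted p = 0.976) and -0.02 without wild type 1. Cdh1 exceeded Cdh2 by 40.0, 38.7, 36.3, 41.5 and 30.4 times in knockout libraries 1 to 5, against 58.6, 51.7, 39.0, 30.4 and 34.5 times in wild-type libraries 1 to 5. The 2 largest ratios were in wild type 1, where Cdh2 was low, and in wild type 2, where Cdh1 was high.

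Vim encodes vimentin, the intermediate filament of mesenchymal cells and leukocytes that dedifferentiated tubule cells also make. It lies on chromosome 2 from 13573927 to 13582826 (plus strand). Vim had 59.4, 67.6, 70.1, 69.5 and 90.0 FPKM in knockout libraries 1 to 5, against 51.4, 87.3, 68.7, 73.0 and 70.8 FPKM in wild-type libraries 1 to 5. Knockout 5 and wild type 2 were high, wild type 1 was low, and 6 libraries lay within 67.6 and 73.0 FPKM. It averaged 71.3 FPKM ± 11.3 in knockout and 70.2 FPKM ± 12.8 in wild-type kidneys (SD, n = 5 each), which is a log2 difference of 0.03 (95% interval -0.29 to 0.35, limma adjusted p = 0.995) and -0.08 without wild type 1. The Vim to Cdh1 ratio of FPKM was 0.702, 0.771, 0.891, 0.697 and 1.16 in knockout libraries 1 to 5, against 0.596, 0.807, 0.742, 0.872 and 0.938 in wild-type libraries 1 to 5. Vim exceeded Cdh1 in knockout 5 alone.

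**Figure D2:**
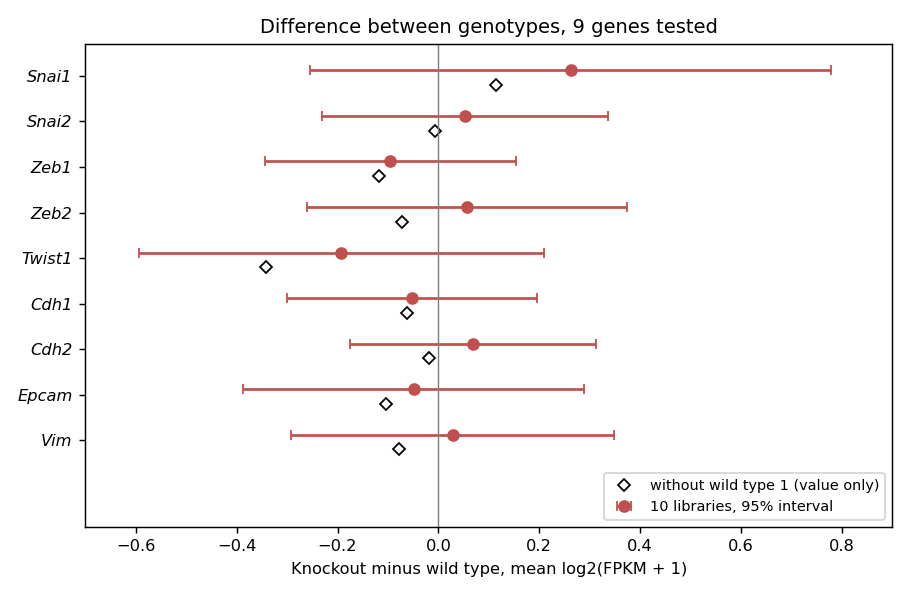
Knockout minus wild type in mean log2(FPKM + 1) (horizontal axis) for the 9 tested genes, with 95% intervals from limma on 10 libraries (filled) and the value without wild type 1 (open diamonds). Every interval crosses 0, and the values run from -0.19 for Twist1 to 0.26 for Snai1.

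Leaving out wild type 1 moved 4 of the 10 differences across 0, those of Snai2, Zeb2, Vim and Cdh2. With it left out, 1 of the 10 genes, Snai1, had a higher mean log2 value in knockout kidneys and 9 had lower ones, against 5 higher and 5 lower with all libraries. The 9 lower values ran from -0.0062 for Snai2 to -0.34 for Twist1. Over all genes tested the median difference was 0.0069 in that fit. No member passed the threshold over all genes (limma, smallest adjusted p over all genes 0.213 in that fit).

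**Figure D3:**
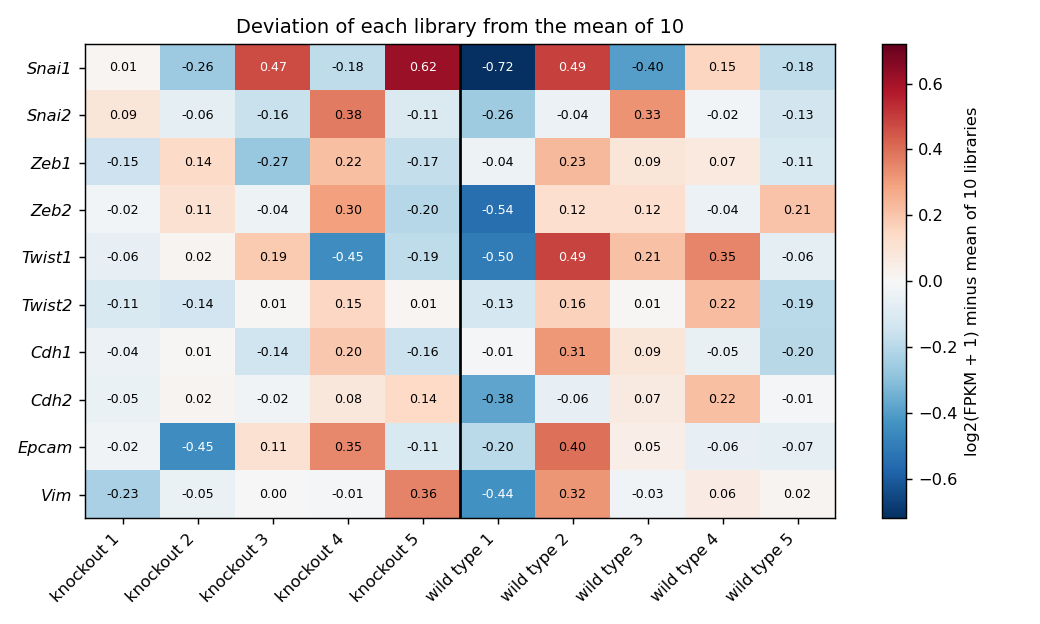
Deviation of each library from the mean of the 10 libraries in log2(FPKM + 1) for each gene (rows), knockout libraries left and wild-type libraries right of the line. Wild type 1 is at -0.72 for Snai1, -0.54 for Zeb2 and -0.50 for Twist1, and at -0.01 for Cdh1.

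Most pairs of members varied in the same direction across libraries. Of the 36 pairs among the 9 tested genes, 31 had a positive Pearson r over the 10 libraries on log2(FPKM + 1), and 24 did without wild type 1. No pair passed an adjusted p of 0.05 over the 36 pairs, and 3 had an unadjusted permutation p under 0.05. The strongest was Zeb1 with Cdh1, a positive relation between a repressor and the gene it is known to repress (r = 0.85, permutation p = 0.00152, adjusted p = 0.0547, Spearman rho = 0.855, permutation p = 0.00302, adjusted p = 0.0965). It was 0.82 without the 2 libraries farthest from the median of Zeb1, wild type 2 and knockout 3, and 0.85 without wild type 1. Its adjusted permutation p was 0.014 with every library scaled to the same total and 0.0338 with upper quartile scaling. It stayed above 0.05 in all 10 fits that left out 1 library, from 0.0526 without wild type 4 to 0.183 without knockout 5. Snai1 with Vim came next (r = 0.80, permutation p = 0.00472, adjusted p = 0.085, Spearman rho = 0.818, permutation p = 0.00536, adjusted p = 0.0965). That relation fell to r = 0.52 without wild type 1 and knockout 5, so it rested partly on those libraries. Cdh1 with Epcam had r = 0.59 (permutation p = 0.0699, adjusted p = 0.457, Spearman rho = 0.455, permutation p = 0.193, adjusted p = 0.66), and r = -0.23 without knockout 4 and wild type 2, so it rested on those 2 libraries. Cdh1 with Cdh2, the cadherin pair, had r = -0.08 (permutation p = 0.82, adjusted p = 0.877, Spearman rho = -0.20, permutation p = 0.582, adjusted p = 0.807), and -0.14 without the same 2 libraries.

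The members were then set beside the mean log2(FPKM + 1) of the tested markers of 9 kidney cell types, as 81 relations. Sums in FPKM, given beside them, cover every listed marker. The strongest was Vim with 7 fibroblast and pericyte markers, among them Pdgfra, Pdgfrb, Dcn and Lum (r = 0.89, permutation p = 0.0005, adjusted p = 0.0336, Spearman rho = 0.661, permutation p = 0.0437, adjusted p = 0.448). It was 0.68 without knockout 5 and wild type 1, and 0.82 without wild type 1 alone (adjusted permutation p = 0.261). Its adjusted p passed the threshold only without wild type 3, knockout 2 or knockout 3, among the 10 fits that each left out 1 library. The 8 listed markers summed to 187.3 to 302.5 FPKM in knockout and 123.4 to 259.8 FPKM in wild-type libraries, with none at 0, and all 7 tested markers had higher mean log2 values in knockout kidneys, none past the threshold. Twist1 with 6 podocyte markers was the other relation that passed (r = 0.88, permutation p = 0.00083, adjusted p = 0.0336, Spearman rho = 0.939, permutation p = 0.00019, adjusted p = 0.0154). It was 0.87 without wild type 1 and wild type 2, and 0.86 without wild type 1 alone (adjusted permutation p = 0.199). Its adjusted p passed only without wild type 3 or knockout 3, among the same 10 fits. These markers, such as the slit diaphragm gene Nphs1, summed to 114.4 to 124.3 FPKM in knockout and 112.9 to 149.3 FPKM in wild-type libraries, with none at 0, and 6 of 6 had lower mean log2 values in knockout kidneys, none past the threshold. Vim with proximal tubule markers had r = -0.83 (permutation p = 0.00225, adjusted p = 0.0607, Spearman rho = -0.661, permutation p = 0.0443, adjusted p = 0.448), -0.76 without knockout 5 and wild type 1, and -0.67 without wild type 1 alone. The 8 proximal tubule markers summed to 766.02 to 1250.3 FPKM in knockout and 589.6 to 2054.3 FPKM in wild-type libraries, with wild type 1 the highest and none at 0. Cdh2 had r = -0.78 with these markers (permutation p = 0.0179, adjusted p = 0.181), and -0.35 without wild type 1. With urothelium markers Cdh2 had r = 0.77 (permutation p = 0.00476, adjusted p = 0.0964), and 0.59 without wild type 1. With macrophage markers Cdh2 had r = 0.81 (permutation p = 0.0321, adjusted p = 0.19), and 0.19 without wild type 1. The 8 macrophage markers summed to 822.5 to 1010.2 FPKM in knockout and 463.2 to 1010.4 FPKM in wild-type libraries, with wild type 1 lowest as for Zeb2 and Vim. Zeb2, which macrophages are known to carry, had r = 0.66 with them (permutation p = 0.0803, adjusted p = 0.339, Spearman rho = 0.188, permutation p = 0.604, adjusted p = 0.858). That value was -0.31 without wild type 1, so it rested on that library, and it was 0.03 without wild type 1 and knockout 4. The 8 T and NK cell markers summed to 8.06 to 11.2 FPKM in knockout and 8.02 to 25.8 FPKM in wild-type libraries, with none at 0, wild type 1 the lowest and the other 4 wild-type libraries above every knockout library. Of the 6 that were tested, 6 had lower mean log2 values in knockout kidneys, with a median of -0.49, and 4 had an unadjusted limma p under 0.05, none past the adjusted threshold. Over all genes tested, 51.6% were higher in knockout kidneys and 4.05% had such a p. These shares also belong beside the counts for fibroblast and podocyte markers. The marker lists were chosen with earlier results of these data known. Zeb2 had r = 0.51 with the T and NK cell markers (permutation p = 0.121, adjusted p = 0.339, Spearman rho = 0.673, permutation p = 0.0383, adjusted p = 0.448), 0.63 without knockout 4 and wild type 1, and 0.40 without wild type 1 alone. Centred on the mean of each genotype, that r was 0.87 with all 10 libraries. Wild type 1 was the lowest wild-type library for both measures, and the centred r was not tested without it. Centred likewise, r was 0.90 for Vim with fibroblast and pericyte markers and 0.88 for Twist1 with podocyte markers. The part of these cell types in the levels of the members was not tested.

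**Figure D4:**
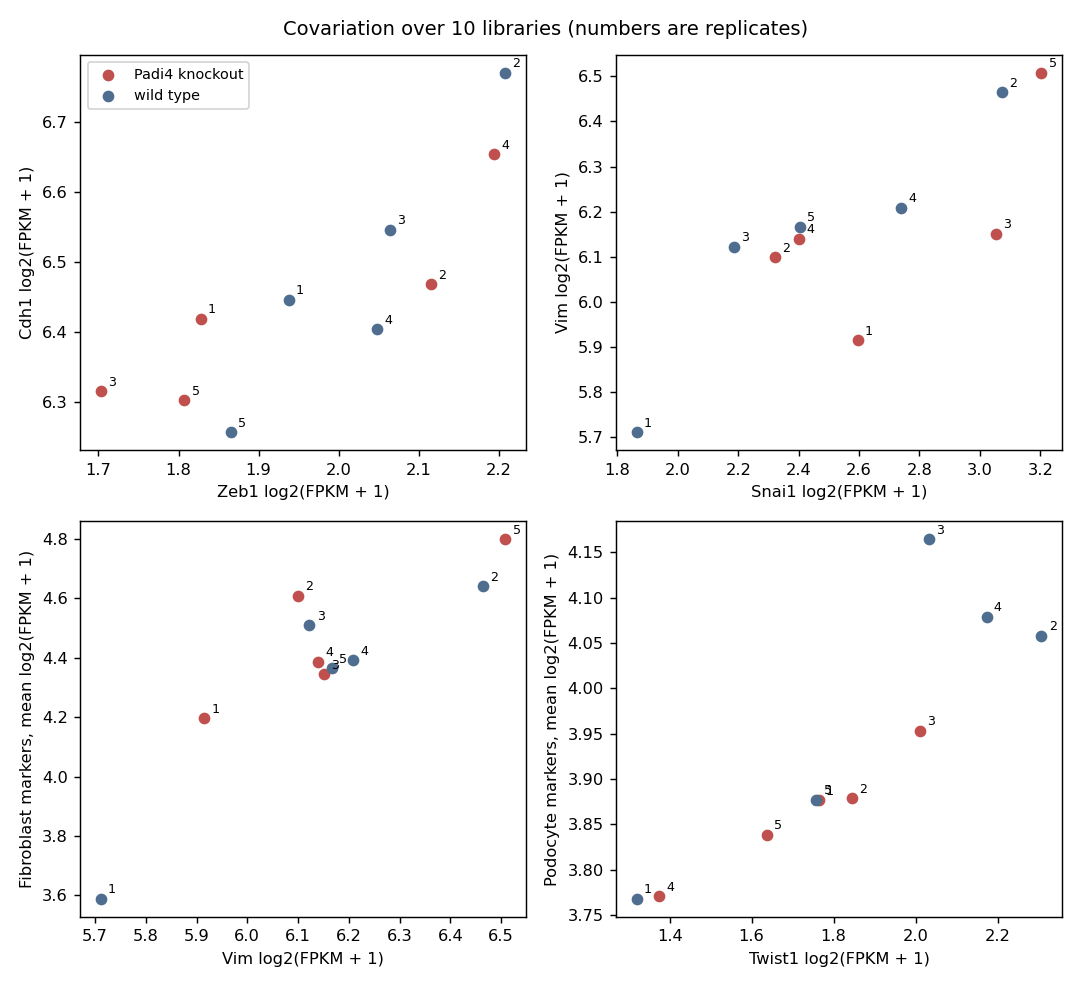
Log2(FPKM + 1) of Zeb1 against Cdh1, Snai1 against Vim, Vim against the mean of 7 fibroblast and pericyte markers, and Twist1 against the mean of 6 podocyte markers, with 1 point per library numbered by replicate. The points run from low left to high right in each panel, with r between 0.80 and 0.89, and both genotypes lie along them.

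Genes around this program were read from 7 lists of 100 genes, of which 91 were tested. In limma 0 of the 91 passed the adjusted threshold, 3 (3.3%) had an unadjusted p under 0.05 against 4.05% of all genes tested, and the groups overlapped for all of them, against 0.744% of all genes tested that did not. These shares are no higher than those over all genes, and the genes named below are those with the smallest p in each list. Among other factors of the program and the Id genes listed with them, 8 of 12 had higher mean log2 values in knockout kidneys. The median was 0.12, against 0.0051 over all genes tested, and the smallest p belonged to 3 Id genes. Id proteins bind basic helix-loop-helix factors and keep them from DNA. Id1, Id2, Id3 and Id4 were all among the 8 higher genes, and the 4 lower genes were Sox9, Tcf4, Tcf12 and Sox4. Id4 averaged 11.1 FPKM ± 2.64 in knockout and 7.67 FPKM ± 1.10 in wild-type kidneys (SD, n = 5 each), which is a log2 difference of 0.46 (limma unadjusted p = 0.0144, adjusted p = 0.976). Id3 averaged 76.7 FPKM ± 9.31 in knockout and 59.5 FPKM ± 15.5 in wild-type kidneys, a log2 difference of 0.39, and Id1 averaged 24.7 FPKM ± 2.84 in knockout and 19.0 FPKM ± 6.47 in wild-type kidneys, a log2 difference of 0.41. None of these passed over all genes.

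Among corepressors and turnover enzymes of SNAIL and ZEB 10 of 15 had lower mean log2 values, with a median of -0.04. The Polycomb methyltransferase gene Ezh2 differed by -0.20, the corepressor scaffold Sin3a by -0.14 and Ctbp1, a corepressor that ZEB proteins recruit, by 0.11. TGF-beta signaling drives the program in cultured epithelium. Among genes of this signaling and of its inhibitors 7 of 12 were lower, with a median of -0.04. The type I receptor gene Tgfbr1 averaged 26.1 FPKM ± 5.14 in knockout and 32.9 FPKM ± 5.79 in wild-type kidneys, a log2 difference of -0.33 (limma unadjusted p = 0.0457, adjusted p = 0.976), and the SMAD corepressors Skil and Tgif1 differed by -0.21 and -0.18.

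Of 10 catenins and other cadherins 5 were higher and 5 lower, with a median of -0.01 and values between -0.12 and 0.17: Cdh11 of mesenchymal cells was at 0.17, Cdh5 of endothelium at -0.12 and the catenin gene Ctnna1 at -0.06. Of 19 epithelial identity genes 10 were higher and 9 lower, with a median of 0.0004. The tight junction gene Cldn3 differed by 0.19, the membrane protease gene Prss8 by 0.20 and its inhibitor gene Spint2 by 0.19. Of 15 mesenchymal genes 10 were higher, with a median of 0.12: the actin-binding gene Tagln differed by 0.31, the matrix gene Tnc by -0.43 and S100a4 by -0.26. Of 8 genes of other intermediate filaments and their linkers 6 were lower, with a median of -0.07. Among these 6 were the epithelial keratin genes Krt7 at -0.14 and Krt18 at -0.19, while Des, which encodes desmin, was at 0.40. None of these genes passed the threshold. The 7 tested fibroblast and pericyte markers had a median difference of 0.16, and their part in the mesenchymal list was not tested.

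**Figure D5:**
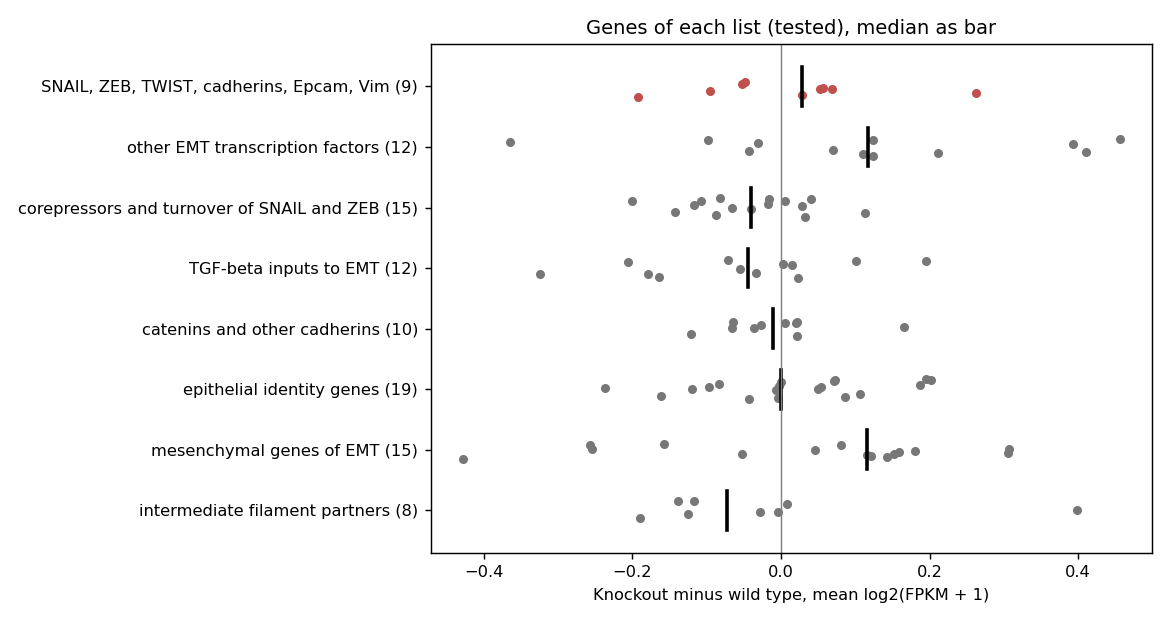
Knockout minus wild type in mean log2(FPKM + 1) (horizontal axis) for each tested gene of the 10-gene group and of 7 lists, with the number tested in brackets and the median as a bar. The medians lie between -0.07 for the intermediate filament list and 0.12 for other factors (with the Id genes) and mesenchymal genes. No gene passed the adjusted threshold.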

How the data were processed

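Messenger RNA libraries from obstructed mouse kidney, 5 per genotype, were grouped by their titles. TRIzol was used for extraction, per the labels' protocols, and the submitters' processing notes name HISAT2 2.0.5. No label or header names the counter, strand handling, annotation or build. The table as deposited states no unit. The authors' values were taken to be FPKM, since value times deposited gene length over 1 step per library was whole within 0.01 reads for 100% of values above 0, which gave back the reads. These FPKM were already scaled by median-of-ratios size factors. Of the gene identifiers 99.77% were in GENCODE vM21 (GRCm38), 98.33% of them with the same coordinates, and 9 of the 10 genes described. No 2 libraries agreed within sampling noise (lowest chi-square per gene 10.7).

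Limma 3.58.1 in R 4.3.3 with a variance trend was fitted on log2(FPKM + 1) to the 13435 genes whose mean reached 1 FPKM, with genotype as the only term and Benjamini-Hochberg adjustment over all of them. Log2 differences are knockout minus wild type and understate changes of low genes. A gene under that mean was given an exact permutation test. Correlations used 100000 permutations (scipy 1.17.1). The script was tested on simulated counts with known changes. Alternatives were a pseudocount of 0.1, no filter, library total and upper quartile scaling, limma-voom on recovered reads, the replicate number as a block, and each library left out. Count tests other than limma-voom were not run, since the file holds FPKM. The genes and lists were chosen with earlier results of these data known. Named are all 10 genes, up to 3 genes with the smallest p per list, and the 3 genes with the highest r with each tested gene among those averaging 5 FPKM or more, some of which are not reported here. Intervals and floors cover counting error or the spread between libraries only.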

Additional observations from a re-analysis of the deposited data

How the results depend on the processing

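Limma called 0 genes under every alternative run, with 0.129 as the smallest adjusted p, reached without a filter. Unadjusted counts of 544 with all libraries became 309 without knockout 3 and 1248 without knockout 4, and with library total scaling their split moved from 275 higher and 269 lower to 305 higher and 154 lower. With the replicate number as a block 0 genes were called, with 435 unadjusted. Same-numbered libraries deviated together with r between -0.344 and 0.306, and 3 of 10 were closest to their own number. Such values cannot decide whether the numbers pair the samples. Of 56 fits of the members under alternatives that kept all libraries, 0 changed direction. Those without a filter and with the replicate block could not, since both leave the log2 difference of each gene as it was. Of 100 fits without 1 library, 12 changed direction, for 7 genes, and none passed the threshold. Ranges without 1 library were 0.115 to 0.417 for Snai1, -0.0355 to 0.14 for Snai2, -0.161 to -0.0386 for Zeb1, -0.0724 to 0.115 for Zeb2, -0.342 to -0.0949 for Twist1, -0.0829 to 0.0206 for Twist2, -0.11 to 0.0183 for Cdh1, -0.142 to 0.0567 for Epcam, -0.0184 to 0.132 for Cdh2 and -0.0776 to 0.111 for Vim.

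For the correlations, alternatives were chosen after the data were seen. Pairs of members past the threshold numbered 0 with all libraries, 1 with library total scaling, 1 with upper quartile scaling, and 0 to 1 without 1 library. The pair was Zeb1 with Cdh1 under both scalings. Without 1 library it was Snai1 with Vim, in the fit without knockout 1 (adjusted permutation p = 0.0331). Relations with marker lists past the threshold numbered 2 with all libraries, 4 with library total scaling and 0 to 3 without 1 library. Over these fits r stayed between 0.817 and 0.935 for Vim with fibroblast markers and between 0.857 and 0.97 for Twist1 with podocyte markers, while their adjusted p crossed the threshold. The cause was not tested. Depth limits Twist2, with 0 to 17 reads per library. Twist1 and Snai1 had 33 to 221 reads per library, and their SD over all libraries was 30.3% and 35.5% of the mean. For Snai2, with 95 to 192 reads, it was 18.5%. The part of counting error in that spread was not tested.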

Other observations

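Among 8470 genes averaging 5 FPKM or more, those whose log2(FPKM + 1) followed each member most closely over the 10 libraries differed from member to member, and only pairs chosen for a high r are given, as a description. Vim was followed by the collagen crosslinking gene Loxl2 (r = 0.96), the fibrillar collagen gene Col3a1 (r = 0.96) and Selenon (r = 0.93). Snai1 was followed by the matrix gene Aebp1 (r = 0.94), by Pmepa1, a TGF-beta target (r = 0.94), and by the collagen chaperone gene Fkbp10 (r = 0.92). Cdh1 was followed by Gm7694 (r = 0.93) and the phosphatase gene Ptpn14 (r = 0.93). Zeb1 was followed by Spty2d1 (r = 0.94), the tight junction scaffold gene Tjp1 (r = 0.91) and Fryl (r = 0.90). Zeb2 was followed by the integrin gene Itga1 (r = 0.95) and the scavenger receptor gene Colec12 (r = 0.94). Twist1 was followed by Afap1l2 (r = 0.95), B4galnt1 (r = 0.92) and Esyt1 (r = 0.92). Cdh2 was followed by the interferon-induced gene Ifit3 (r = 0.93), Dhrs7 (r = 0.93) and Zfp358 (r = 0.93). Epcam was followed by Armcx1 (r = 0.91), the endothelial adhesion gene Esam (r = 0.90) and Tmem158 (r = 0.88). Snai2 was followed by Prom1 (r = 0.89) and Gm9531 (r = 0.88). Each r rests on the same 10 libraries, of which wild type 1 was the lowest for 6 of the 10 members.

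The fat cell markers, 6 genes that can come from tissue around the kidney, summed to 12.7 to 386.4 FPKM in knockout and 19.5 to 150.4 FPKM in wild-type libraries. The mean log2 level of the 5 that were tested had r = -0.74 with Epcam (permutation p = 0.0155, adjusted p = 0.18, Spearman rho = -0.806, permutation p = 0.00727, adjusted p = 0.196) and r = -0.73 with Cdh1 (permutation p = 0.0156, adjusted p = 0.18, Spearman rho = -0.636, permutation p = 0.0545, adjusted p = 0.448). Without the 2 libraries farthest from the median, r was -0.75 for Epcam and -0.38 for Cdh1, so the relation with Cdh1 rested on knockout 4 and wild type 2.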
